A study of Mus musculus with 4 samples.

Results

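The UBR ligases are ubiquitin ligases that share the UBR box, a zinc-binding fold, and 5 of their genes, *Ubr1*, *Ubr2*, *Ubr3*, *Ubr4* and *Ubr7*, were followed here out of the 52550 genes in the count table. They were taken by gene symbol, as *Ubr4* and its paralogs. *Ubr4* itself was named by the study as a potential target from a list of transcripts found with these same libraries. That list was overlapped with proteins that rose after knockdown of the protein pulled down here. Its enrichment was thus part of how it was picked, and its values below are not independent evidence of its direction. All 5 passed the filter on low counts, which 13632 genes passed.

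In several of these ligases the UBR box binds the N-terminal residue of a protein. In the N-degron pathway, certain N-terminal residues, some present from the start and others made by cleavage, deamidation, oxidation or arginylation, mark a protein for ubiquitination and destruction by the proteasome, and proteins that read these residues are called recognins. YTHDF2, the protein pulled down here, is a cytoplasmic reader of N6-methyladenosine (m6A) that binds modified mRNAs and promotes their decay.

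The libraries came from retinas of wild-type C57BL/6 mice at postnatal day 0, dissociated with papain. In 2 biological replicates, RNA taken before the pulldown (input) and RNA recovered with anti-YTHDF2 antibody (RNA immunoprecipitation, RIP) were each sequenced, to find the transcripts that YTHDF2 holds. A pulldown with control IgG is part of the methods and was not analysed here, so RNA that sticks to beads or antibody cannot be told apart from RNA held by YTHDF2. No sorting of the cells is described, and the sources do not say how many pups were pooled.

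Total counts ran from 19530226 to 39499994 per library, and protein-coding genes kept 8.37% to 11.5% of them. All 18 listed markers of retinal neurons and progenitors had at least 10 counts in every library. Of 15 markers of other cell types, 3 reached that level in every library and 4 were at 0 in all, with summed levels of 3.44 to 5.53 CPM (read counts scaled by library size and edgeR's TMM factor). The retinal markers summed to 455 and 473 CPM in the inputs, against 380 and 362 CPM in the RIP libraries, and the part of this difference in the results below was not tested.

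The 5 genes differ widely in size. *Ubr4* (ENSMUSG00000066036) lies on the plus strand of chromosome 4 at 139352609 to 139489588 (GRCm38), and its longest transcript in GENCODE M21 has 106 exons and 15928 nt, of which 15543 nt are coding. *Ubr1* (ENSMUSG00000027272) lies on the minus strand of chromosome 2 at 120860269 to 120970715 and *Ubr2* (ENSMUSG00000023977) on the minus strand of chromosome 17 at 46928295 to 47010556, each with 47 exons, and they are close in transcript length at 7768 and 7633 nt. *Ubr3* (ENSMUSG00000044308) lies on the plus strand of chromosome 2 at 69897246 to 70024013, with 39 exons and 8081 nt. *Ubr7* (ENSMUSG00000041712), on the plus strand of chromosome 12 at 102757967 to 102777707, is the small one, with 11 exons, 3261 nt and a coding sequence of 1278 nt that is shorter than its 3′ UTR of 1921 nt.

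The methylated adenosine that YTHDF2 reads is often found in the letters GGACT of a transcript's DNA sense strand, most densely near stop codons. For that reason the sequence around the GGACT nearest to the stop codon is shown for each gene, read 5′ to 3′ from the longest GENCODE M21 transcript, with the searched letters in capitals. All 5 stretches lie in coding sequence, and m6A itself was not measured in these libraries.
Ubr1: agcttcctgaGGACTacagctgtct
Ubr2: gaccgaccagGGACTcagacgagga
Ubr3: cctcgtgtctGGACTggccagttgc
Ubr4: aggcggtgaaGGACTattctgcgta
Ubr7: ctgaacttaaGGACTacctgaagag
In GRCm38 the *Ubr1* stretch is chr2:120868250-120868274 in exon 44, the *Ubr3* stretch chr2:70018475-70018499 in exon 36, the *Ubr4* stretch chr4:139485296-139485320 in exon 104 and the *Ubr7* stretch chr12:102771237-102771261 in exon 10. The *Ubr2* stretch crosses an exon junction and its ends lie at 46930494 and 46932470 on chromosome 17. The matches start 453 bases before the last base of the stop codon in *Ubr1*, 149 in *Ubr2*, 555 in *Ubr3*, 297 in *Ubr4* and 126 in *Ubr7*.

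Over its whole length *Ubr4* held 24 such matches, all of them coding, against 9 in *Ubr2*, 9 in *Ubr3*, 5 in *Ubr1* and 2 in *Ubr7*. Per kilobase this came to 1.51 in *Ubr4*, 1.18 in *Ubr2*, 1.11 in *Ubr3*, 0.644 in *Ubr1* and 0.613 in *Ubr7*. Only the transcript strand was searched, and the median over tested protein-coding genes was 1.04 per kilobase. These letters are common, since 93.9% of tested protein-coding genes held at least 1 match. Each of the 1270 genes with a longest transcript of at least 7000 nt did so.

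*Ubr4* was the 1 member of 5 called enriched in the RIP, and no member was called depleted. Enriched here means a log2 fold change of 1 or more with an unadjusted p below 0.05 in edgeR's quasi-likelihood test, limits that 9.43% of all tested genes passed, and depleted means the same in the other direction, which held for 17.2%. The log2 fold changes of the 5 genes lay between 0.47 and 1.48 with a median of 0.54, beside a median of -0.05 over all tested genes. Both RIP libraries stood above both inputs for 3 of the 5, *Ubr2*, *Ubr4* and *Ubr7*, an order found in 29.6% of all tested genes. Fold changes are relative to the bulk of tested transcripts and are no amount of RNA bound. A level in whole retina does not tell fewer cells of a type from less RNA per cell.

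*Ubr4* encodes a very large ligase that binds calmodulin and is abundant in neurons. Replicates 1 and 2 gave it 891 and 622 counts as input, and 1570 and 1505 counts after the pulldown. On the CPM scale these were 26.7 and 18.1 in the inputs, against 62.2 and 62.6 in the RIP libraries. Both RIP libraries were thus well above both inputs, and they lay closer to each other than the inputs did.

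From 22.4 ± 6.08 CPM in input to 62.4 ± 0.240 CPM in RIP (mean ± SD, n = 2 each), *Ubr4* was 2.78-fold higher, a log2 fold change of 1.48 with a standard error of 0.356, a 95% interval of 0.66 to 2.29 and an adjusted p of 0.0301 (edgeR's quasi-likelihood test, Benjamini-Hochberg). An adjusted p below 0.05 in the direction of RIP was reached by 3.48% of tested genes. The log2 ratio of RIP to input was 1.22 in replicate 1 and 1.79 in replicate 2. Its fold change stood at the 95.3 percentile of all tested genes and its input level at the 93.5 percentile. *Ubr4* met the call whichever library was left out, at 1.22 to 1.78, although its adjusted p was 0.236 without RIP replicate 1 and 0.225 without RIP replicate 2, where the lone RIP library is assumed to vary like the inputs. Its call was lost when trends of fold change on transcript length and GC content were removed, at a log2 fold change of 0.76. The adjusted p was then 0.262, by a t test of the remaining fold change over edgeR's unchanged standard error.

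**Figure D1:**
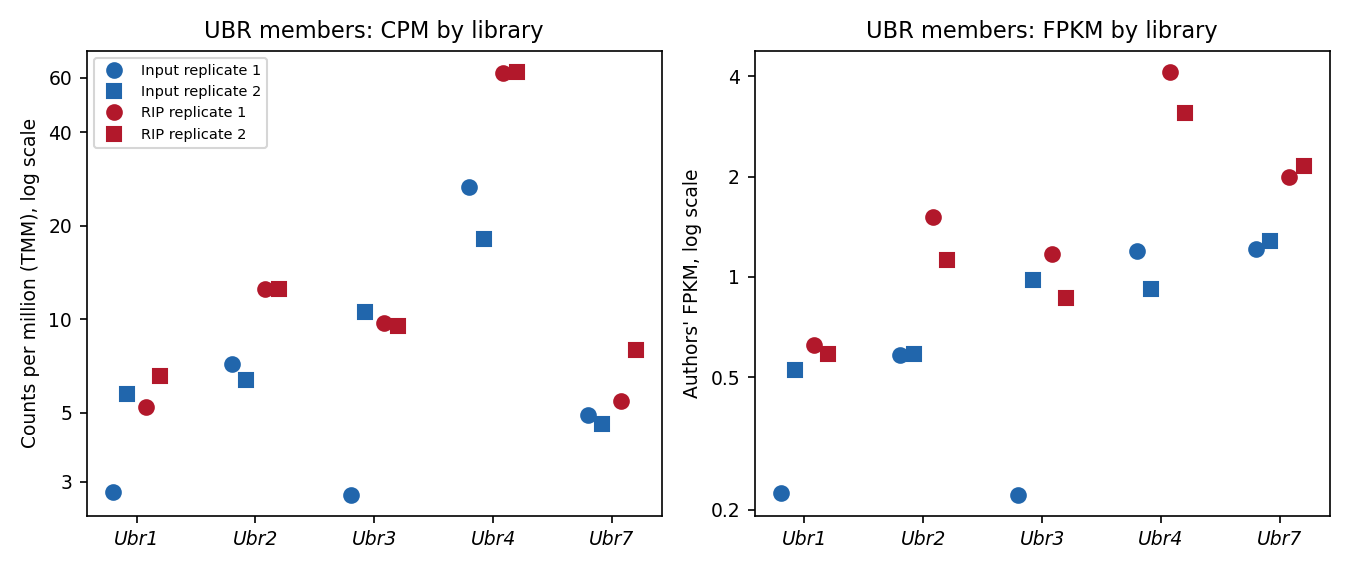
Level of each UBR gene in each library, with log scales, as TMM-scaled CPM (left) and as the authors' FPKM (right), with inputs in blue, RIP libraries in red, replicate 1 as circles and replicate 2 as squares. The RIP libraries of *Ubr4*, at 62.2 and 62.6 CPM, stand above its inputs at 26.7 and 18.1 CPM, while those of *Ubr3* overlap its inputs on both scales and those of *Ubr1* on the CPM scale alone.

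*Ubr2*, a RING-type recognin close to *Ubr1* in sequence, was next in fold change. It had 239 and 219 input counts against 316 and 302 RIP counts, or 7.17, 6.38, 12.5 and 12.6 CPM. The groups did not overlap. The mean went from 6.78 ± 0.556 to 12.5 ± 0.0214 CPM (SD, n = 2 each), a log2 fold change of 0.89 with a standard error of 0.334 and a 95% interval of 0.13 to 1.65. Its p of 0.0271 was below 0.05 in edgeR's test, but the fold change was under the limit of 1 and the adjusted p was 0.116, so *Ubr2* was not called. Scaling by library size alone, which moved the median of all tested genes from -0.05 to 0.27, gave *Ubr2* a log2 fold change of 1.23 and a call.

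*Ubr1*, the recognin after which the family is named, binds basic and bulky hydrophobic N-terminal residues. It had 93 and 197 input counts against 132 and 158 RIP counts, or 2.79, 5.74, 5.23 and 6.57 CPM. The groups overlapped, since input replicate 2 was above RIP replicate 1. Its log2 fold change was 0.47 with a standard error of 0.446, a 95% interval of -0.55 to 1.48 and an adjusted p of 0.525 by edgeR, so that the interval reached up to the estimate for *Ubr4*.

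*Ubr3* encodes a RING-type relative of Ubr1 and Ubr2. It had 91 and 361 input counts against 246 and 229 RIP counts, or 2.73, 10.5, 9.75 and 9.52 CPM. Input replicate 2 was the highest of the 4 libraries and input replicate 1 the lowest, 3.85-fold apart, with both RIP libraries between them. The log2 fold change was 0.54 with a standard error of 0.562, a 95% interval of -0.74 to 1.82 and an adjusted p of 0.566 by edgeR. The log2 ratio of RIP to input was 1.84 in replicate 1 and -0.14 in replicate 2.

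A single input library decided the calls of *Ubr1* and *Ubr3*. Without input replicate 2 both were called enriched, *Ubr3* at 1.81 on the log2 scale (adjusted p = 0.000108 by edgeR) and *Ubr1* with 1.07 (adjusted p = 0.0120). Without input replicate 1 the values were -0.13 for *Ubr3* and 0.04 for *Ubr1*, and neither was called. In these fits the lone input library is assumed to vary like the RIP libraries.

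*Ubr7*, whose product carries a PHD-type finger next to the UBR box, had 164 and 158 input counts against 138 and 191 RIP counts. Scaled, these were 4.92, 4.60, 5.47 and 7.94 CPM, so that the RIP libraries were higher without overlap, although the raw count of RIP replicate 1 was the lowest. The log2 fold change was 0.49 with a standard error of 0.378, a 95% interval of -0.37 to 1.35 and an adjusted p of 0.422 by edgeR. Reads of *Ubr7* are less certain than those of the other members, since 5.66% of its 31-base words occur in *Gm20604*, an annotated gene on the opposite strand that overlaps it, which had 105 and 63 input counts against 47 and 98 RIP counts. The library kit keeps strand, but the strand setting of the counting is not given in the sources used here.

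**Figure D2:**
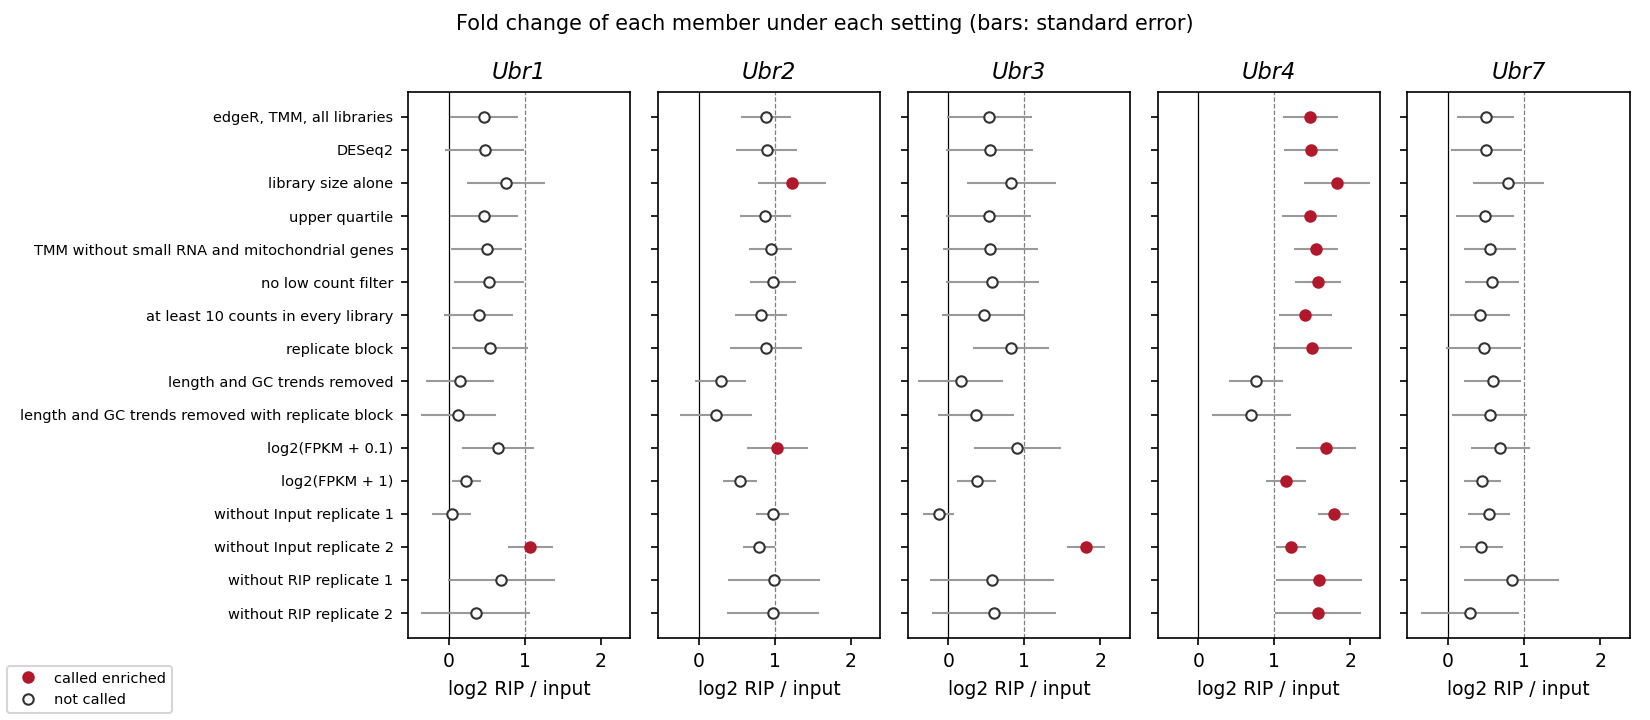
Log2 fold change of RIP over input for each UBR gene under each processing setting, with standard errors as bars, filled points where the gene was called enriched and a dashed line at the limit of 1. *Ubr4* is called in 13 of 15 alternatives and falls to 0.76 and 0.70 in the fits with length and GC trends removed, while *Ubr1* and *Ubr3* are called only without input replicate 2.

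No 31-base word of a member's longest protein-coding transcript occurred in any transcript of another member, so reads of these transcripts can be told apart. *Emc1*, a neighbouring gene on the same strand, overlaps the span of *Ubr4* by 26122 nt but shares no 31-base word with its longest protein-coding transcript. The other annotated transcripts of *Ubr4* were not compared with *Emc1*. *Emc1* had 212 and 118 input counts against 312 and 285 RIP counts, far fewer than *Ubr4*. On the opposite strand *2700016F22Rik* overlaps *Ubr4* by 3831 nt and shares no 31-base word with that transcript. It had 38 and 67 input counts and 0 in both RIP libraries. *AV039307*, opposite to *Ubr1*, holds 3.23% of that member's 31-base words, with 1 and 6 input counts against 1 and 2 RIP counts.

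The ratio of *Ubr4* to another member within a library does not depend on how libraries are scaled. *Ubr4* had 3.73 and 2.84 times the counts of *Ubr2* in the inputs, against 4.97 and 4.98 times in the RIP libraries, and 5.43 and 3.94 times the counts of *Ubr7* in the inputs, against 11.4 and 7.88 times in the RIP libraries. For both pairs the RIP ratios lay above the input ratios, by 0.61 on the log2 scale for *Ubr2* and 1.03 for *Ubr7*. An exact two-sided permutation test gave p = 0.333 for each, the smallest p that 2 libraries against 2 allow, and 0.667 after adjustment over the 4 pairs compared. The ratios to *Ubr1* (9.58 and 3.16 in the inputs, 11.9 and 9.53 in RIP) and to *Ubr3* (9.79 and 1.72 in the inputs, 6.38 and 6.57 in RIP) overlapped between input and RIP, with exact permutation p of 0.667 and 1. Since this test cannot fall below 0.333, it cannot decide whether *Ubr4* changed more than its paralogs.

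*Ubr4* made up 60.3% and 39.9% of the summed counts of the 5 genes in the inputs, against 65.4% and 63.1% in the RIP libraries. *Ubr3* took 6.16% and 23.2% in the inputs and 10.2% and 9.60% in RIP. The makeup of the family thus differed more between the input libraries than between the RIP libraries.

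Levels of different genes can be compared only per length, for which the authors' FPKM values (fragments scaled for gene length and library size) were used. In the inputs *Ubr7* was highest, at 1.21 and 1.28 FPKM, followed in replicate 1 by *Ubr4* at 1.19 FPKM and in replicate 2 by *Ubr3* at 0.977 FPKM, with *Ubr4* at 0.916 FPKM there. In both RIP libraries the order was *Ubr4*, *Ubr7*, *Ubr2*, *Ubr3* and *Ubr1*, from 4.12 and 3.09 FPKM for *Ubr4* down to 0.622 and 0.587 FPKM for *Ubr1*. The ranges of the input libraries overlapped for *Ubr3* with each of *Ubr1*, *Ubr2* and *Ubr4*, and among the RIP ranges those of *Ubr2* (1.51 and 1.12 FPKM) and *Ubr3* (1.17 and 0.863 FPKM) overlapped. The highest member was 5.44 and 2.44 times the lowest in the inputs, against 6.62 and 5.27 times in the RIP libraries.

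Fold change went with transcript length over the whole table, and 4 of the 5 members are long, all but *Ubr7*. Across 11953 tested protein-coding genes the log2 fold change had a Spearman correlation of 0.456 with the log10 of the longest transcript's length, a description across genes that share the same 4 libraries. Of genes with 10000 nt or more, the class of *Ubr4*, 25.6% of 347 were enriched, and their median log2 fold change was 0.59 with quartiles of 0.02 and 1.09. *Ubr4* at 1.48 lay above the upper quartile of this class. In the class from 7000 nt to just under 10000 nt, which holds *Ubr1*, *Ubr2* and *Ubr3*, 20.8% of 923 were enriched with a median of 0.52, beside 0.47, 0.89 and 0.54 for these members. *Ubr7*, at 0.49, belongs to the class from 2000 nt to just under 5000 nt, with 8.64% enriched and a median of 0.04.

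The differences between the inputs went with GC content and with transcript length. Input replicate 2 minus input replicate 1, in log2 CPM, had a Spearman correlation of -0.594 with GC content across the same genes, against 0.0100 for the RIP replicates. *Ubr1* and *Ubr3*, with 43.6% and 44.3% GC, were higher in input replicate 2 by 1.04 and 1.95 on the log2 scale, and the median of genes with 40% to 45% GC was 0.65. The members' differences here are plain log2 ratios of CPM. The medians and the correlation were taken after adding a small constant to CPM, which shrinks differences at low levels. *Ubr4*, with 54.5% GC, and *Ubr2*, with 50.7% GC, had differences of -0.56 and -0.17, beside a median of -0.39 for 50% to 55% GC. By length the median rose from -0.40 under 2000 nt to 0.73 at 10000 nt or more, the class of *Ubr4*. It was 0.57 in the class of *Ubr1*, *Ubr2* and *Ubr3*. *Ubr1* and *Ubr3* thus lay above the median of their length class, and *Ubr2* and *Ubr4* below theirs. With trends on length and GC content removed from the fold changes, the values were 0.15 for *Ubr1*, 0.29 for *Ubr2*, 0.16 for *Ubr3*, 0.76 for *Ubr4* and 0.59 for *Ubr7*, all above 0 and none called. With the replicate block in the same fit *Ubr4* was at 0.70.

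**Figure D3:**
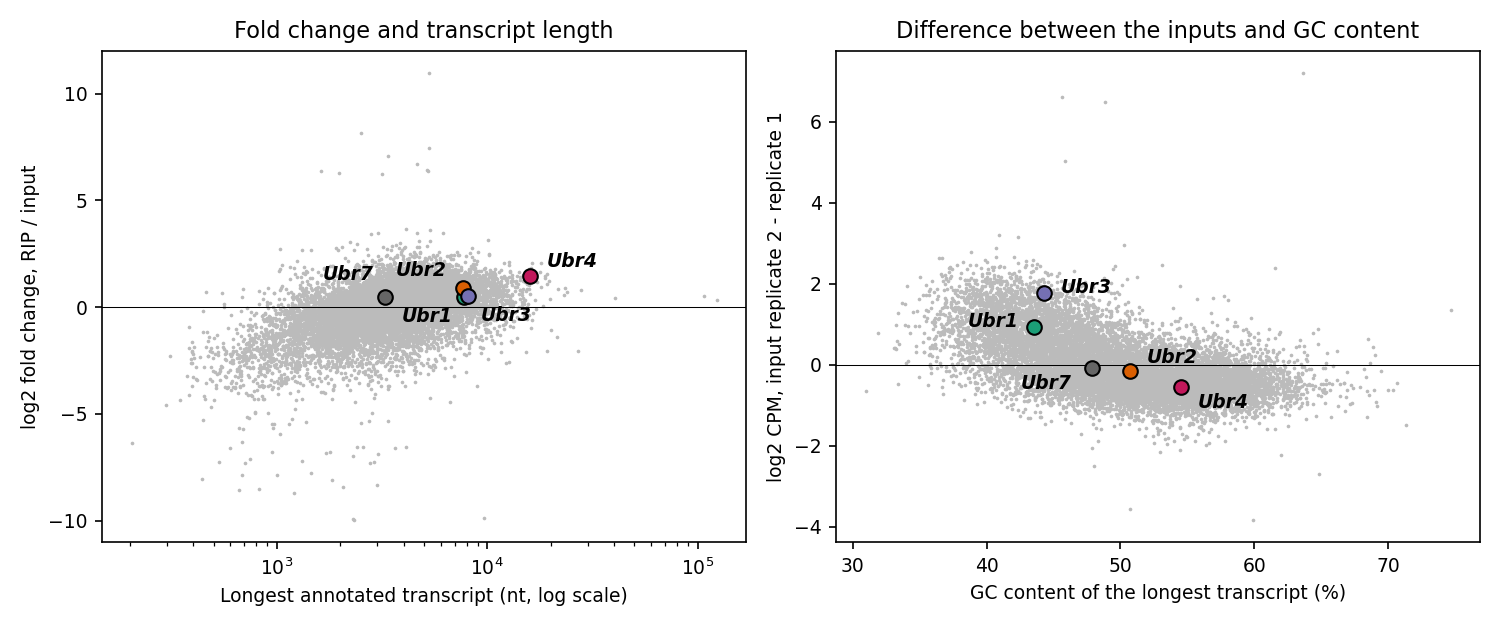
Each grey point is a tested protein-coding gene, plotted by the length of its longest transcript (log scale) and its log2 fold change of RIP over input (left), and by GC content and the difference between the inputs in log2 CPM (right). *Ubr4* lies among the longest transcripts at a log2 fold change of 1.48, and *Ubr1* and *Ubr3* lie on the side of low GC content that was higher in input replicate 2.

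The rest of the N-degron pathway did not move in a single direction. Of 21 listed genes, all tested, 2 were called enriched, 5 depleted and 14 neither, with a median log2 fold change of -0.13, the same with *Rgs5* at its bound, beside -0.05 over all tested genes. Of all tested genes 9.43% were enriched and 17.2% depleted. The sign of the list's median depended on the processing, and the median of all tested genes moved with it. Scaling by library size alone gave the list 0.20 (7 enriched, 4 depleted), beside 0.27 over 13632 genes (2357 and 1725). On log2(FPKM + 0.1) the list was at 0.22 (7 and 4), beside 0.15 over 14493 genes (1797 and 2140). With length and GC trends removed it was at 0.11 (3 and 3), beside 0.06 over 13619 genes (1226 and 1310). At an adjusted p below 0.05, 2 were higher and 4 lower in RIP, shares to be read beside 3.48% and 9.78% of all tested genes.

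Recognins without a UBR box held the largest value of the list. *Gid4*, the substrate receptor of the CTLH ligase that binds N-terminal proline, had 307 and 436 input counts against 1654 and 1412 RIP counts. It was 5.67-fold higher in RIP (standard error 0.362 on the log2 scale, adjusted p = 0.00382 by edgeR). It was called in all 15 alternatives, with log2 fold changes of 2.28 to 2.84. *March6*, a ligase of the endoplasmic reticulum membrane that recognises acetylated N-termini, had 247 and 460 input counts against 826 and 903 RIP counts. Its log2 difference was 1.75 (adjusted p = 0.0236 by edgeR), and it met the unadjusted limits in all 15 alternatives. With length and GC trends removed it was at 1.43. The adjusted p was then 0.0833 by the t test on edgeR's unchanged standard error. *Sqstm1*, *Zer1* and *Zyg11b* were not called. In this group 5 of 5 genes had their RIP libraries above both inputs, beside 29.6% of all tested genes, and the median log2 fold change was 0.92. Removal of length and GC trends put *Gid4* at 2.29, *Sqstm1* at 0.97, *Zyg11b* at 0.62 and *Zer1* at 0.11. Without input replicate 2 *Zyg11b* was called too, at 1.43.

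*Fbxo11*, an F-box protein with a UBR box, had a log2 fold change of -0.15 and was not called.

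The conjugating enzymes and partners with which these ligases work lay on the other side. All 5 listed had both RIP libraries below both inputs, an order found in 31.3% of tested genes, and their median was -0.99. With length and GC trends removed, *Ube2a* was at 0.21 and *Ube2b* at 0.083, above 0 and not called. Among them *Calm2* and *Calm3*, which encode the calmodulin that Ubr4 binds, were called depleted. *Calm2* went from 4090 and 4561 counts to 1066 and 920 (log2 fold change -1.67, adjusted p = 0.0158 by edgeR), and *Calm3* from 5560 and 3090 to 1154 and 1190 (-1.43, adjusted p = 0.0484). The call of *Calm3* was lost without input replicate 1, at -0.92, and without RIP replicate 1, at -1.26. With length and GC trends removed *Calm2*, whose longest transcript has 1205 nt, was at -0.12 and not called. *Kcmf1*, a ligase partner of Ubr4, had 299 and 210 input counts against 122 and 109 RIP counts (-0.69, adjusted p = 0.260 by edgeR) and was not called. *Ube2a* and *Ube2b*, the RAD6-type conjugating enzymes used by Ubr1 and Ubr2, were at -0.91 and -0.99 and not called, although *Ube2b* was called without input replicate 1, at -1.01, and with the replicate block, at -1.005.

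The enzymes that make N-degrons were divided. *Ntan1*, which deamidates N-terminal asparagine, fell from 183 and 132 counts in the inputs to 18 and 24 in RIP (log2 fold change -2.44, adjusted p = 0.0112 by edgeR). With length and GC trends removed *Ntan1*, whose longest transcript has 1175 nt, was at -1.17 and still met the unadjusted limits. Its adjusted p there was 0.184 by the t test on edgeR's unchanged standard error. *Wdyhv1*, which does so for glutamine, had 14 and 29 counts against 4 and 0 and was called depleted, but the call held in 5 of 13 alternatives and was lost without RIP replicate 2, at -1.91. *Ate1*, the arginyltransferase, *Ado*, the cysteine dioxygenase, and the methionine aminopeptidases *Metap1* and *Metap2* were not called, at 0.89, 0.89, 0.998 and -0.44. *Metap1*, just under the limit, was called with the replicate block at 1.07 and without input replicate 2 at 1.55, where *Ate1* was called too at 1.53, while *Ado* was called without input replicate 1 at 1.36. Of the substrates, *Rgs5* had 13 and 14 counts in the inputs and 0 in both RIP libraries, at least 3.28-fold lower against a floor of 3 counts per library. *Rgs5* was called depleted (adjusted p = 0.0474 by edgeR) and is among the depleted genes counted above. Its call held in the 10 alternatives that tested it. The adjusted p was 0.0558 with the replicate block by edgeR. It was 0.0927 with length and GC trends removed, by the t test on edgeR's unchanged standard error. *Rgs4*, *Rgs16* and *Pink1* had values of -0.05, 0.26 and -0.13 and were not called.

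**Figure D4:**
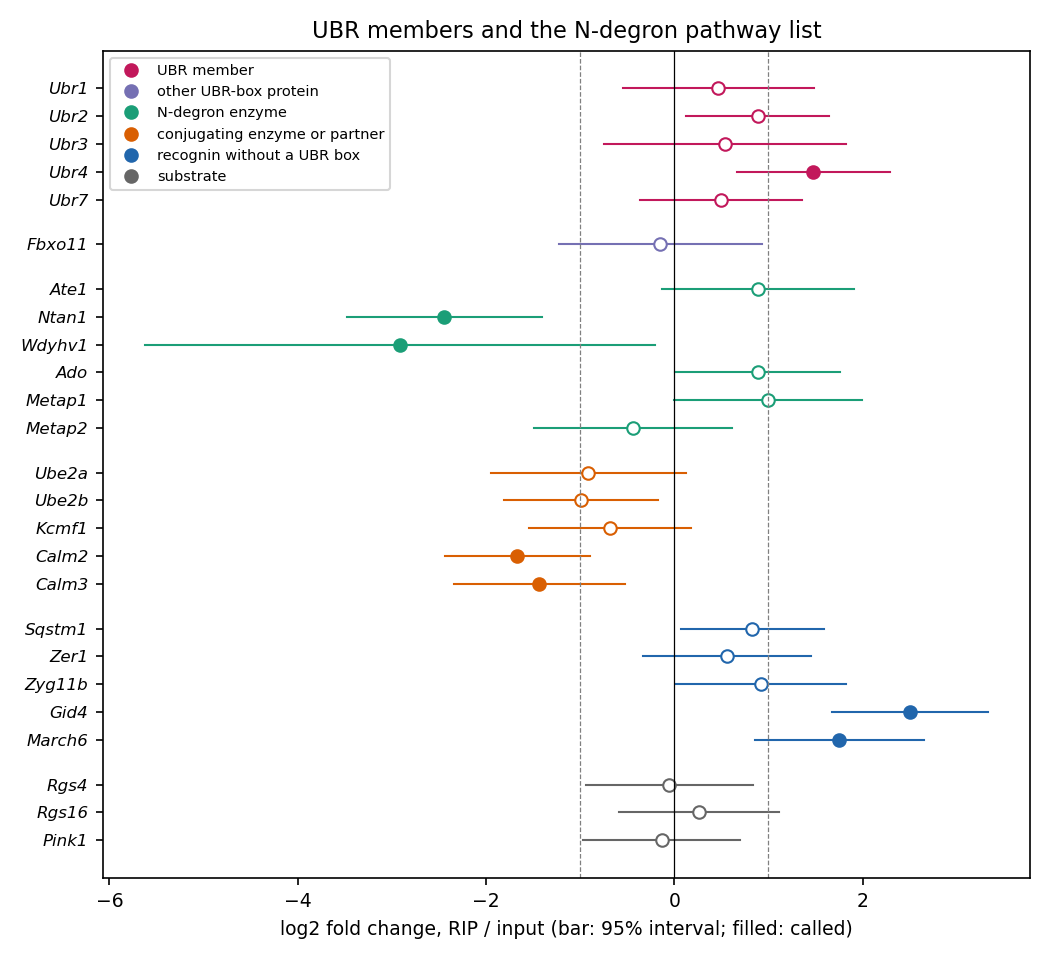
Log2 fold change of RIP over input with 95% intervals for the 5 UBR genes and the N-degron pathway list, coloured by role, filled where called, with dashed lines at the limits of 1 and -1. *Rgs5*, called depleted with 0 counts in both RIP libraries, is not plotted. The 5 conjugating enzymes and partners all lie below 0 (*Ube2a* and *Ube2b* above it once length and GC trends are removed). The 5 recognins without a UBR box all lie above 0.

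Over the 4 libraries the gene closest to *Ubr4* in pattern was *Bsn*, which encodes the presynaptic scaffold Bassoon. Its centred log2 CPM differed from that of *Ubr4* by a root mean square of 0.0190, the smallest among 5016 genes with a mean of at least 5 CPM. *Bsn* has a longest transcript of 15938 nt, close to the 15928 nt of *Ubr4*, and a log2 fold change of 1.53. With length and GC trends removed *Bsn* was at 0.61 and not called. The next were *Dusp18* (0.0301), *Rab11fip3* (0.0512), *Rnf157* (0.0575) and *Cdk5r1* (0.0580), with longest transcripts of 4162 to 5383 nt. Of the other members *Ubr2* came nearest, at rank 548 with a difference of 0.348, followed by *Ubr7* at rank 1553, *Ubr1* at rank 2315 and *Ubr3* at rank 3062. The likeness rests on 4 libraries and is a description.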

How the data were processed

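Input and anti-YTHDF2 RIP libraries (n = 2 each) were grouped by their labels. The authors deposited counts of reads per gene, not normalised and not pooled, and FPKM values for the same genes. The submitters' processing notes name STAR 2.5, HTSeq and GRCm38, and the counting annotation, the strand setting and the tool behind FPKM are not given in the sources used here. Gene models and sequences were those of GENCODE M21 (GRCm38). Of the 52550 gene identifiers 52403 were found there, and the longest transcript stood for each gene.

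Counts were tested in R 4.3.3 with edgeR 4.0.16 (filterByExpr with a minimum count of 10 and a minimum total of 15, TMM, glmQLFit, glmQLFTest), with Benjamini-Hochberg adjustment over all 13632 tested genes. TMM factors were 0.845 and 0.948 for the inputs and 1.29 and 0.966 for RIP. Standard errors were obtained by dividing each log2 fold change by the root of its F statistic. Over 6858 genes whose lowest library had 50 counts or more, replicates had a Pearson r of log2 CPM of 0.868 (inputs) and 0.969 (RIP), across genes. P-values set the difference between the groups against the spread between these samples, which edgeR shares across genes. Floors cover counting error only.

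Equal replicate numbers mark a shared replicate in the series' design text. The difference between the inputs and that between the RIP libraries had a Pearson r of -0.0348 across genes. The replicate block was an alternative, as were DESeq2 1.42.0, other scalings and filters, limma 3.58.1 on log2(FPKM + 0.1) and log2(FPKM + 1) where the mean FPKM reached 0.1, each library left out, and removal of length and GC trends (mgcv 1.9.3). For that removal the trends were fitted to the log2 fold changes across genes. Each remaining fold change was divided by edgeR's unchanged standard error and read on a t distribution. The uncertainty of the trend itself is left out. The fits were run on simulated counts with 200 genes changed. Those counts held no trend on length or GC content, so how the fits handle such trends was not tested.

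The members, the pathway list, the markers, the tests and the alternatives were chosen with earlier results of these data known. Some genes of the pathway list are not reported here and were left out of its counts. Named genes are the members, genes of the pathway list, and the 5 genes nearest to *Ubr4* in centred log2 CPM. *Emc1*, *Gm20604*, *2700016F22Rik* and *AV039307* lie outside this rule and are named because they overlap members. *March6* was matched by its gene identifier.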

Additional observations from a re-analysis of the deposited data

How the results depend on the processing

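Of 75 alternatives of the members' log2 fold changes, 69 kept the side of the call, 4 gained a call, 2 lost it and 0 reversed a called value. *Ubr3*, not called, turned to -0.13 without input replicate 1. *Ubr4* lost its call with length and GC trends removed, at 0.76, and at 0.70 with the replicate block added. In those fits 0 members were enriched, with adjusted p of 0.262 and 0.497 for *Ubr4* by the t test on edgeR's unchanged standard error. The genes depleted numbered 1310 and 1381, with 3 depleted in the pathway list in each. At an adjusted p below 0.05 these fits gave 294 and 638 genes lower, and the fit without the block gave 190 higher. The replicate block alone left every member's call as it was (*Ubr4* adjusted p = 0.0280 by edgeR) and raised the genes higher at an adjusted p below 0.05 from 474 to 721. *Ubr2* gained its call with scaling by library size alone, at 1.23, and on log2(FPKM + 0.1), at 1.04, each with 2 members and 7 pathway genes enriched. Library size alone gave 2357 enriched genes, 57.7% of those called in either direction against 35.4% with TMM, and 845 higher at an adjusted p below 0.05. On that scale mean CPM was 6.05 and 14.2 for *Ubr2* in input and RIP, 10.9 and 70.4 for *Ubr3* and *Ubr4* in RIP, and 4.26 for *Ubr7* in input. Length and GC removal put the share of enriched among called genes at 48.3%, and log2(FPKM + 0.1) at 45.6%. On log2(FPKM + 1) there were 386 enriched and 1055 depleted genes, and 3 depleted in the pathway list. Without a filter on low counts 292 genes were higher at an adjusted p below 0.05.

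Leaving out 1 library at a time, log2 fold changes spanned 0.039 to 1.07 for *Ubr1* and -0.13 to 1.81 for *Ubr3*, and 1 to 3 members were enriched. Over all genes 670 to 2097 were enriched and 1562 to 2610 depleted, and 8 to 2537 were higher and 112 to 2766 lower at an adjusted p below 0.05. The lowest counts came without a RIP library and the highest without an input. In the pathway list 2 to 5 genes were enriched, the most without input replicate 2, and 3 to 4 depleted. The RIP minus input difference in the log2 ratio of *Ubr4* to *Ubr3* ran from -0.60 without input replicate 2 to 1.91 without input replicate 1. The cause of these shifts was not tested.

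The lowest counts of a member were 91 for *Ubr3* and 93 for *Ubr1*, both in input replicate 1. With 2 libraries a group, an exact test of a single gene cannot fall below p = 0.333, so calls lean on the spread shared across genes.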
